A study of Homo sapiens with 6 samples.

Results

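CCL2, CXCL8, TNF, CCL3, CCL5, TGFB1, IL16 and MIF encode secreted cytokines of leukocytes, and all 8 genes were found by Ensembl identifier among the 18798 genes of the deposited count table. The set was chosen by the measured difference between the groups, with the results of these libraries known. CCL2 is in it as 1 of the 3 genes past an adjusted p of 0.05 in edgeR's test over all genes, and CXCL8 and TNF are in it as calls of DESeq2, so the differences of these 8 genes between the groups are given below as a description, without a test. For 7 of the 8 genes the counts were high enough for the model over all genes; CCL3 had too few.

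The cells were U937, a human line that grows in culture as monocyte precursors, sequenced as bulk RNA in 6 libraries after transduction and growth in geneticin. The 3 ΔNSPs libraries came from independent clones depleted at once of CTSG, ELANE and PRTN3, the genes of the neutrophil serine proteases cathepsin G, elastase and proteinase 3. Each of the 3 Control libraries was a separate line with control plasmids. Each ΔNSPs library is a single clone, so a feature of a clone and an effect of the depletion cannot be told apart within 1 library, and in bulk RNA fewer cells of a kind and less RNA per cell cannot be told apart either. Library totals ran from 11476619 to 13782854 counts, and levels are given as CPM, counts scaled to a common library size with TMM factors, with SD over 3 libraries. CTSG was at 45.2 to 136 CPM in the clones, against 1895 to 2752 CPM in Control. ELANE and PRTN3 were at 63.2 CPM at most in the clones and at 146.9 CPM at least in Control. Of 15 markers written down for monocytic cells 14 were in the table, summing to 1324 to 1799 CPM in the clones and 1378 to 1541 CPM in Control, but the defining markers CD14 and CD68 were near 0, at 0.337 and 1.14 CPM at most. The defining T cell receptor genes CD3D, CD3E and CD3G were not in the table, and neither was MS4A1 of B cells. TRAC, the T cell receptor alpha gene, had 16, 20 and 45 counts in clones 1 to 3 and 7, 7 and 4 counts in Control replicates 1 to 3 (log2 fold change 2.11, edgeR adjusted p = 0.178). Of the 3 T and NK cell markers tested, 2 had a positive log2 fold change and 1, NKG7, a negative one (-0.49, edgeR adjusted p = 0.207). PAX5 of B cells was lower in all clones than in all Control lines (-1.31, edgeR adjusted p = 0.273), narrowly so at 8.41 CPM in clone 1 and 8.51 CPM in Control replicate 1. Of the 4 B cell markers tested 3 were negative and 1, CD79A, was positive with overlapping groups (0.70, edgeR adjusted p = 0.25). T and NK cell markers, mostly NKG7, summed to 136 to 187 CPM in the clones and 177 to 258 CPM in Control, and B cell markers to 26.7 to 67.7 CPM in the clones and 46.9 to 85.4 CPM in Control. Erythroid and megakaryocytic markers summed to 91.7 to 118 CPM in the clones and 77.6 to 137 CPM in Control. These sums overlapped between the groups, unlike those of fibroblast, epithelial and endothelial markers (59.4 to 74.9 CPM in the clones, 50.7 to 58.5 CPM in Control), most of it PECAM1, which leukocytes also express; their part in the results below was not tested. Control replicate 1 stood apart from Control replicates 2 and 3, with a chi-square per degree of freedom of 16.4 and 18.9 against them and 7.65 between those replicates, and clone 1 stood apart from clones 2 and 3 (28.5 and 32.7, against 19.6), so values are given library by library.

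Chemokines guide leukocytes along a gradient through G protein-coupled receptors. CCL2 draws monocytes through CCR2, CXCL8 (interleukin 8) draws neutrophils through CXCR1 and CXCR2, and CCL3 and CCL5 act on CCR1 among other receptors. TNF is made as a membrane protein and released by the sheddase ADAM17, TGFB1 is secreted in a latent complex, IL16 is cut from a cytosolic precursor and attracts CD4-bearing cells, and MIF leaves the cell without a signal peptide and binds CD74. In monocytes CCL2, CXCL8 and TNF are known as inducible genes that respond to NF-kB and AP-1 and several of whose mRNAs are short-lived through AU-rich elements, whereas TGFB1 and MIF are known to be made without a stimulus.

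The promoters of 3 genes, CXCL8, TNF and TGFB1, are shown because they differ in layout. CXCL8 and TNF were higher in the clones. TGFB1 had the highest CPM per kilobase of exon of the 8 in the clones, with the uncertain MIF row taken as it stands. The promoters are the 250 bases before the transcription start from RefSeq (GRCh38.p14), read 5′ to 3′ on the gene's strand. Capitals mark matches to an NF-kB-like motif (GGNNTTTCC), the AP-1 motif (TGANTCA) and a TATA motif (TATAAA), searched on both strands. No 2 matches overlapped.
CXCL8, chr4:73740319-73740568, plus strand: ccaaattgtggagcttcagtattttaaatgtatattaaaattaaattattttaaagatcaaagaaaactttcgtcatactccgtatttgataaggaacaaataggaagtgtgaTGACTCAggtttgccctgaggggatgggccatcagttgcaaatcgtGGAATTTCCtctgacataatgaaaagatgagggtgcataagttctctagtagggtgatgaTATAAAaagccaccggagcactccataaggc
TNF, chr6:31575315-31575564, plus strand: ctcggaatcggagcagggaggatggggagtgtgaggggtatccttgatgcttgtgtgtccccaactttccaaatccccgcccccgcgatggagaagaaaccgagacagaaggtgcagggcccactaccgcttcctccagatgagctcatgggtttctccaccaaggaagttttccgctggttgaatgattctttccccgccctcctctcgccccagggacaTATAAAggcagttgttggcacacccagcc
TGFB1, chr19:41353923-41354172, minus strand: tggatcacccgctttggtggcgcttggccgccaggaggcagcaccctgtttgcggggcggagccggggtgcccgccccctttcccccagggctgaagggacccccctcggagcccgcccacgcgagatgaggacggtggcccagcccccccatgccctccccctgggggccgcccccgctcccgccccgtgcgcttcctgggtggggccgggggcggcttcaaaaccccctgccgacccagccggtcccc

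CXCL8 held 1 match to each of these motifs, at -137 to -131 for AP-1, -91 to -83 for the NF-kB-like motif and -31 to -26 for TATA, counted from the start. TNF held the TATA motif at -29 to -24 and 2 GC boxes (GGGCGG), and TGFB1 held 6 GC boxes and none of the other motifs. Of all 35116 promoters in the RefSeq table, 5.48% hold the NF-kB-like letters, 6.57% the AP-1 motif, 10.7% TATAAA and 42.6% a GC box. GC content was 37.6% in CXCL8, 57.2% in TNF and 76.8% in TGFB1, against a median of 58.0% over all promoters. Among the other members, the first CCL3 start had a TATA motif at -29 to -24, MIF had 3 GC boxes and a GC content of 70.4%, and IL16 had 1 GC box at the first of its starts and no match at the second. Entries for 6 of the 8 genes were in the table, CCL2 and CCL5 not among them. Each motif was searched as a fixed pattern, so a promoter without a match may hold other forms of the site. These matches are descriptions of letters, and factor binding was not measured.

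**Figure D1:**
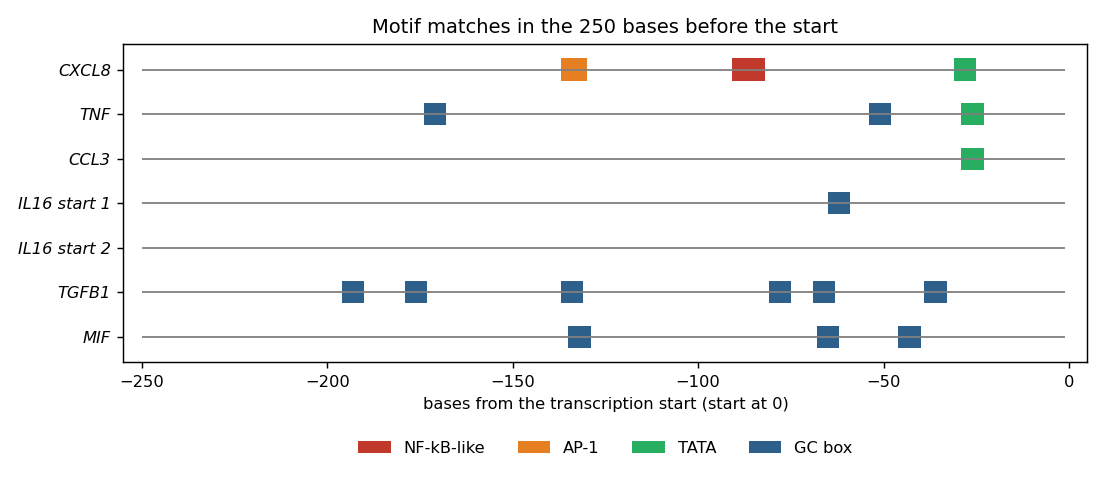
Motif matches in the 250 bases before the transcription start of CXCL8, TNF, CCL3, IL16 (2 starts), TGFB1 and MIF; the horizontal axis is the distance from the start in bases, and each box is 1 match on either strand. CXCL8 alone of these matches the fixed NF-kB-like and AP-1 patterns, and TGFB1 holds 6 GC boxes. Other forms of these sites were not searched.

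AU-rich elements were read from the 3′ UTRs of GENCODE v29 transcripts, taking for each gene the transcript with the longest coding sequence. The 30-base stretch with the most ATTTA pentamers is shown for TNF, CXCL8 and CCL2, which stood apart most between the groups, and for CCL3, with the pentamers in capitals.
TNF: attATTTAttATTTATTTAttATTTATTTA
CXCL8: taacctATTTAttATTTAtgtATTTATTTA
CCL3: acttaaattttaATTTATTTAtactATTTA
CCL2: tatgccttaagtaatgttaattcttATTTA
TNF held 9 pentamers in 799 bases and 5 copies of the nonamer TTATTTATT, and CXCL8 held 9 pentamers in 1252 bases and 1 nonamer. CCL3 had 4 pentamers in 416 bases and CCL2 had 1 in 376 bases. TGFB1 held 2 in 729 bases and IL16 6 in 5260 bases, while CCL5 and MIF held 0. The density was 11.3 per kb in TNF, 9.62 in CCL3, 7.19 in CXCL8 and 2.66 in CCL2, against a median of 1.47 per kb over tested protein-coding genes, of which 7.85% hold the nonamer. Of those genes 66.6% hold the pentamer, and 31% are at or above the density of CCL2, so CCL2 does not stand out by it.

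Of the chemokine genes, CCL2 (ENSG00000108691, chromosome 17, 34255218 to 34257203 on GRCh38) differed most. It was at 55.2, 137.7 and 147 CPM in ΔNSPs clones 1, 2 and 3, against 7.57, 10.1 and 8.84 CPM in Control replicates 1, 2 and 3. The groups were far apart, with the lowest clone 5.49 times the highest Control line. Clone 1 carried less than either other clone, and the 3 clones spread 2.67-fold where the Control lines spread 1.33-fold. The group means were 113.5 ± 50.7 CPM in ΔNSPs and 8.83 ± 1.25 CPM in Control (SD, n = 3 each), a log2 fold change of 3.68 (SE 0.37). Over all genes 0.0203% were past edgeR's adjusted p of 0.05, 0.00676% higher and 0.0135% lower in ΔNSPs, and since CCL2 was picked for being 1 of them, nothing is read from its call; that call ended without any 1 library other than clone 1 (adjusted p = 0.0621 to 0.532 in edgeR) and held without clone 1.

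CXCL8 (ENSG00000169429, chromosome 4, 73740506 to 73743716), whose promoter holds the AP-1 and NF-kB-like matches above, was at 6.91, 12.4 and 10.2 CPM in clones 1 to 3, against 0.766, 3.98 and 1.82 CPM in Control replicates 1 to 3. All clones were above all Control lines, by 1.74 times between the nearest pair. Here the Control lines were the more scattered group, with a 5.20-fold range that rests on 9 counts in Control replicate 1 and 55 counts in Control replicate 2. The means were 9.84 ± 2.77 CPM in ΔNSPs and 2.19 ± 1.64 CPM in Control (SD, n = 3 each; log2 fold change 2.14, SE 0.51). Without Control replicate 2 the log2 fold change was 2.91, and without Control replicate 1 it was 1.74.

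CCL5 (ENSG00000271503, chromosome 17, 35871491 to 35880793), known also as RANTES, had the highest RPKM of the 4 chemokines in every library (RPKM is CPM per kilobase of exon). It was at 119.6, 121 and 189.8 CPM in clones 1 to 3, against 177, 202 and 221 CPM in Control replicates 1 to 3. Clones 1 and 2 were below every Control line, while clone 3 lay inside the Control range, so the groups overlapped. The means were 144 ± 40.0 CPM in ΔNSPs and 200.2 ± 21.9 CPM in Control (SD, n = 3 each; log2 fold change -0.48, SE 0.19), and without clone 3 the log2 fold change was -0.73. CCL3 (ENSG00000277632, chromosome 17, 36088256 to 36090169) was close to absent, with 0, 7 and 0 counts in the clones and 1, 1 and 4 counts in the Control lines. In these libraries 3 counts, the limit that a count of 0 allows, correspond to 0.214 to 0.260 CPM (counting error only), so a difference in CCL3 was not detectable at this depth. Its near-identical copy CCL3L3 and 74.6% of its exonic bases, shared with the antisense annotation AC243829.4, make its assignment uncertain.

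Levels per kilobase of all annotated exons of a gene give a rough basis for comparing genes with one another. On that basis the make-up of these 4 chemokine transcripts differed between the groups. CCL2 held 25.3%, 44.6% and 36.3% of their summed RPKM in clones 1 to 3, against 3.14%, 3.61% and 2.94% in Control replicates 1 to 3. CCL5 held 71.9%, 51.7% and 61.5% in the clones, against 96.5%, 95.1% and 96.4% in Control. The shares of both chemokines were far apart between the groups, but shares of the same sum are not separate results. A higher share of CCL2 lowers that of CCL5, and CCL2 was chosen for its difference. CCL5 itself overlapped between the groups, so nothing further is read from the shares or from the ratio below. The ratio of CCL2 to CCL5 was 0.352, 0.863 and 0.591 in the clones, against 0.0325, 0.0379 and 0.0305 in Control. The summed RPKM of the 4 overlapped between the groups, at 109.97 to 204 in ΔNSPs and 121 to 152 in Control.

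**Figure D2:**
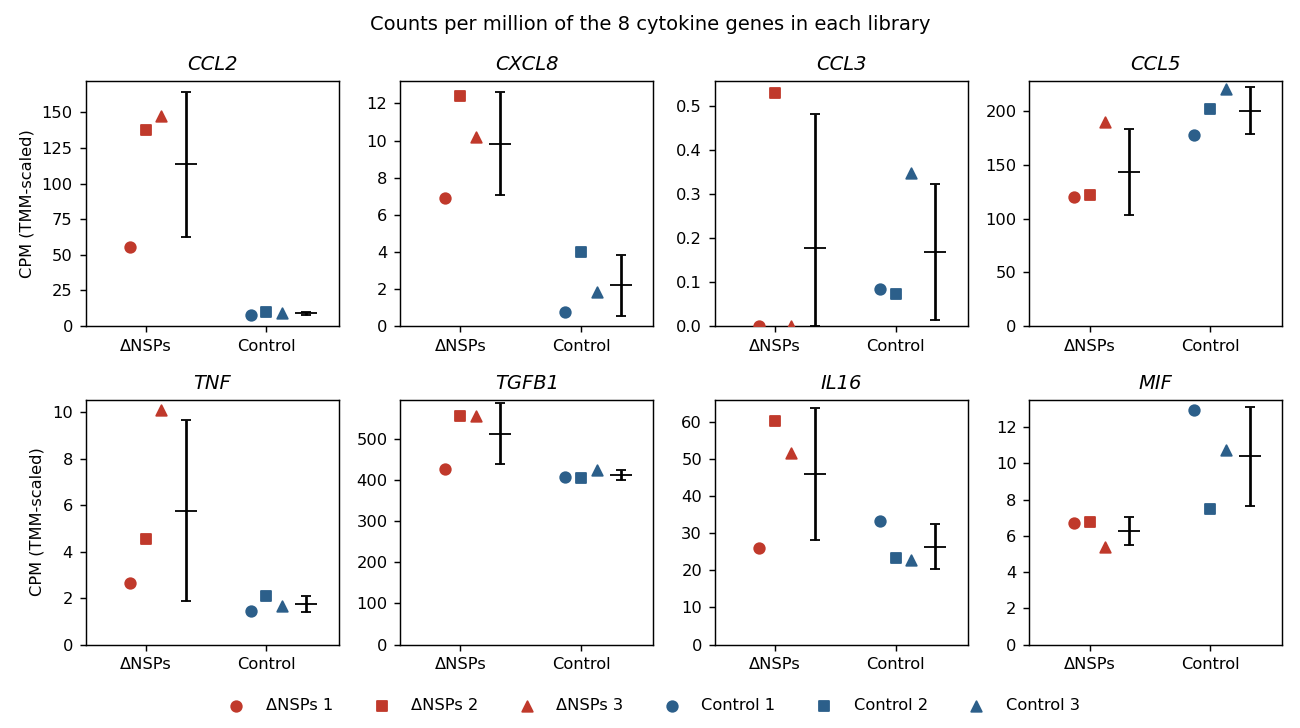
CPM of the 8 genes in each library (vertical axes start at 0 and differ between panels), ΔNSPs clones at the left of each panel and Control lines at the right; the shape gives the replicate number, the dash the mean and the bar 1 SD over 3 libraries, cut at 0. Every clone is above every Control line for CCL2, CXCL8 and TNF, while CCL5 and IL16 overlap.

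Among the other cytokines TNF (ENSG00000232810, chromosome 6, 31575567 to 31578336) was at 2.64, 4.54 and 10.1 CPM in clones 1 to 3, against 1.45, 2.10 and 1.65 CPM in Control replicates 1 to 3. All clones were above all Control lines, but clone 1 was only 1.26 times the highest Control line, and clone 3 was 3.83 times clone 1. The counts behind these values were small, 37, 60 and 120 in the clones and 17, 29 and 19 in the Control lines. The means were 5.76 ± 3.88 CPM in ΔNSPs and 1.73 ± 0.335 CPM in Control (SD, n = 3 each; log2 fold change 1.72, SE 0.49). Without clone 3 the log2 fold change was 1.04. The clone order differed between the inducible genes: TNF was highest in clone 3 and CXCL8 in clone 2, and all 3 genes were lowest in clone 1.

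TGFB1 (ENSG00000105329, chromosome 19, 41301587 to 41353911) was at 428, 554 and 555 CPM in clones 1 to 3, against 407, 404 and 425 CPM in Control replicates 1 to 3. Clones 2 and 3 stood well above Control, whereas clone 1 was 1.01 times the highest Control line. The means were 512 ± 73.5 CPM in ΔNSPs and 412 ± 11.4 CPM in Control (SD, n = 3 each; log2 fold change 0.31, SE 0.12). HNRNPUL1, on the other strand, shares 6.64% of its exonic bases. IL16 (ENSG00000172349, chromosome 15, 81159575 to 81314058) divided the clones in the same way, at 25.9, 60.3 and 51.6 CPM in clones 1 to 3, against 33.3, 23.2 and 22.7 CPM in Control replicates 1 to 3. Clone 1 lay inside the Control range, so the groups overlapped (log2 fold change 0.80, SE 0.30). Of the exonic bases of IL16, 36.0% are shared with STARD5 on the other strand, which was at 7.84, 16.3 and 12.6 CPM in the clones and 10.2, 10.6 and 6.24 CPM in Control; the strand setting of the counting is not given in the sources used here.

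MIF (ENSG00000240972, chromosome 22, 23894004 to 23895227) was at 6.70, 6.74 and 5.39 CPM in clones 1 to 3, against 12.9, 7.46 and 10.7 CPM in Control replicates 1 to 3. All clones were below all Control lines (log2 fold change -0.72, SE 0.24). This row cannot be read as the level of MIF mRNA, because 61.9% of its exonic bases are shared with MIF-AS1 on the opposite strand. The MIF-AS1 row carried 472 to 613 CPM in the 6 libraries, and the MIF row made up 0.972% to 2.42% of the sum of both. The sum was 515 ± 34.3 CPM in ΔNSPs and 546 ± 72.8 CPM in Control (SD, n = 3 each; log2 fold change -0.083, SE 0.12). That sum is nearly all counts of the MIF-AS1 row. The strand setting of the counting is not given, so which of the genes these reads came from cannot be told. Whether the sum follows MIF was not tested.

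Of the 7 tested members, 4 were higher and 1 lower in all clones than in all Control lines, and 2 overlapped. Over all 14797 tested genes the groups did not overlap in 23.9%, 12.2% with ΔNSPs higher and 11.7% with ΔNSPs lower; since this contrast chose members, nothing is read from their count. The median log2 fold change was 0.80 over the 7 members and 0.0023 over all tested genes. Nothing is read from that median either, for the same reason. The members varied unevenly within groups. Among the clones the SD of log2 CPM was 0.79 for CCL2, 0.94 for TNF, 0.64 for IL16, 0.42 for CXCL8 and 0.38 for CCL5. It was 0.22 for TGFB1 and 0.18 for MIF, with 0.23 for the median gene. Among the Control lines it was 1.08 for CXCL8, 0.40 for MIF, 0.31 for IL16, 0.25 for TNF and 0.20 for CCL2. It was 0.16 for CCL5 and 0.04 for TGFB1, with 0.16 for the median gene. How far low counts add to the spread of CXCL8 and TNF was not tested.

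**Figure D3:**
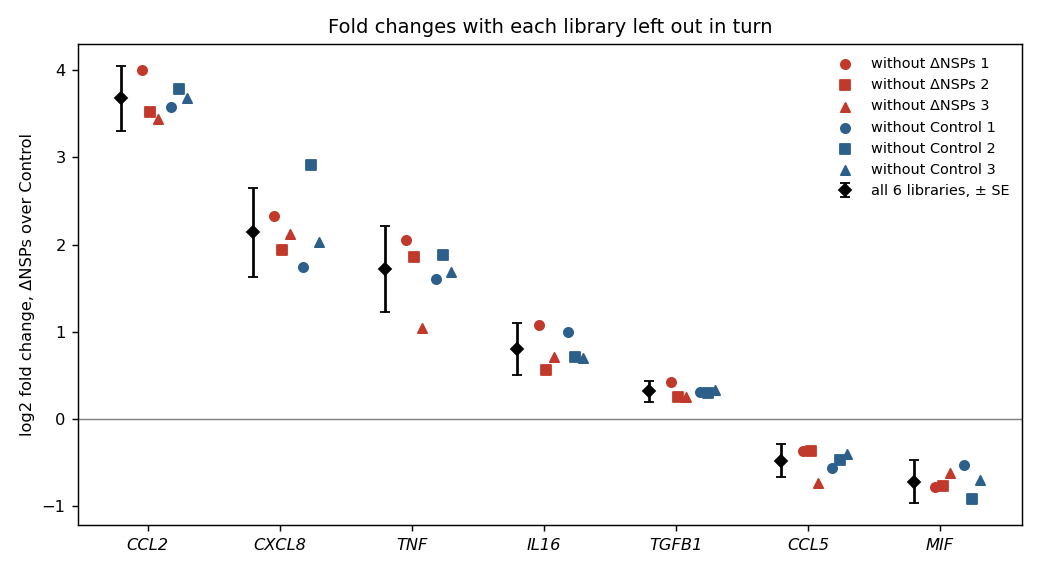
Log2 fold change, ΔNSPs over Control, of the 7 tested genes: the diamond and bar give the value with all 6 libraries and its SE, and each coloured symbol the value without 1 library. Each gene keeps its sign in all 6 refits; TNF moves to 1.04 without clone 3 and CXCL8 to 2.91 without Control replicate 2.

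The order of the 8 genes by mean RPKM differed between the groups. RPKM divides by all annotated exons of a gene, 12094 bases for IL16 and 1986 bases for CCL2, whichever are in use. The order and percentages below depend on that length: by CPM IL16 lay above CXCL8 in ΔNSPs, at 46.0 and 9.84 CPM. CCL2 lay above MIF in ΔNSPs and below it in Control, but the MIF row cannot be read as the level of MIF mRNA. TGFB1 and CCL5 changed places, and their ranges overlapped in Control. CXCL8 lay above IL16 and TNF in ΔNSPs and below both in Control. In ΔNSPs the order was TGFB1 (158 ± 22.7 RPKM), CCL5 (95 ± 26.5), CCL2 (57.1 ± 25.5), MIF (5.66 ± 0.692), CXCL8 (4.33 ± 1.22), IL16 (3.8 ± 1.48), TNF (3.44 ± 2.32) and CCL3 (0.118 ± 0.205; SD, n = 3). In Control it was CCL5 (132 ± 14.5 RPKM), TGFB1 (127 ± 3.52), MIF (9.36 ± 2.48), CCL2 (4.44 ± 0.628), IL16 (2.18 ± 0.494), TNF (1.03 ± 0.200), CXCL8 (0.963 ± 0.722) and CCL3 (0.112 ± 0.104; SD, n = 3). Among neighbours in these orders, the ranges overlapped in ΔNSPs between MIF and CXCL8, CXCL8 and IL16, and IL16 and TNF. In Control they overlapped between CCL5 and TGFB1 and between TNF and CXCL8. CCL2 stood above 93.2% of tested genes by RPKM in ΔNSPs and above 43.6% in Control, while CXCL8 stood above 43.4% in ΔNSPs and 15.1% in Control. TNF stood above 38.3% in ΔNSPs and 16.0% in Control, so both were low transcripts in either group.

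**Figure D4:**
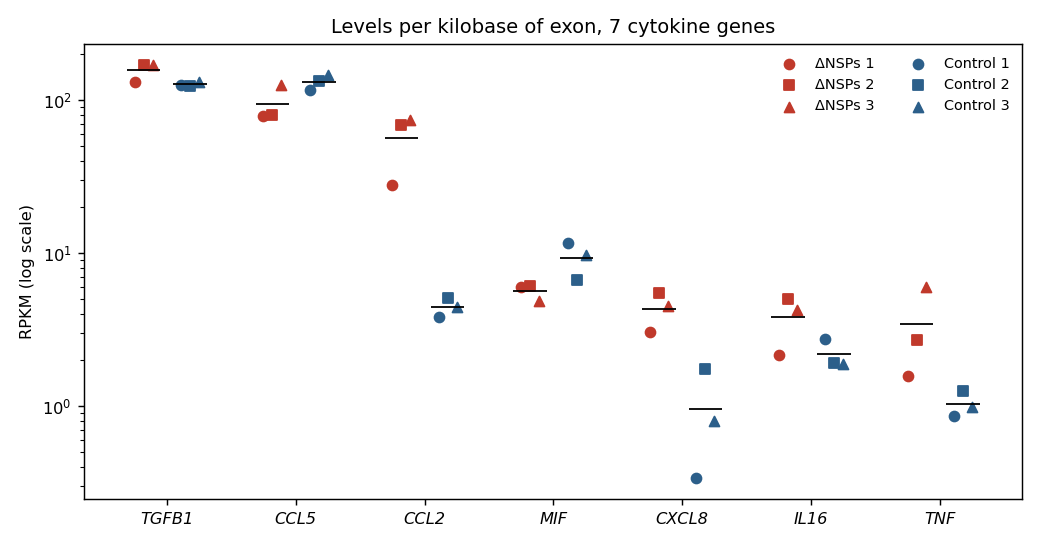
RPKM (log axis) of 7 cytokine genes in each library, ΔNSPs at the left and Control at the right of each pair, ordered by the ΔNSPs mean; the line is the mean over 3 libraries, and CCL3 is left out because 2 clones had 0 counts. CCL2 stands at 27.8 to 74.3 RPKM in the clones and at 3.81 to 5.07 RPKM in Control.

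The genes that lie beside the members did not show differences of the size seen in CCL2 or CXCL8. For each member the 5 nearest tested genes on each side were taken. Beside CCL2 their median log2 fold change was 0.10, with a range of -0.28 to 0.36, and beside CXCL8 it was -0.06 (-0.44 to 0.84), the highest being CXCL2. Beside TNF, in a stretch of 143 kb within the major histocompatibility complex, the median was 0.41 and 7 of 10 genes were positive. On its downstream side LTB (lymphotoxin beta), LST1, NCR3 and AIF1 had log2 fold changes of 0.51 (SE 0.34), 1.28 (SE 0.27), 1.5 (SE 0.33) and 0.65 (SE 0.20), with all clones above all Control lines in each. None of these 4 passed edgeR's test over all genes (adjusted p = 0.453, 0.16, 0.167 and 0.189), and they were singled out after their values were seen. The fifth gene on that side, PRRC2A, was lower in all clones (-0.10). Beside TGFB1 the overlapping annotations AC011462.2 (1.80) and B3GNT8 (1.42) were as high and also higher in all clones (edgeR adjusted p = 0.2 and 0.171). The medians were 0.08 beside both CCL5 and CCL3, 0.15 beside TGFB1, 0.11 beside IL16 and 0.03 beside MIF. CCL5 and CCL3 share many of their neighbours, and 6 of 10 were positive beside each. Among the shared ones AC015849.5 (-0.87) and RDM1 (-1.23), singled out after their values were seen, were lower in all clones (edgeR adjusted p = 0.3 and 0.216).

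The protein-coding genes whose pattern was most like a member's were sought among 11546 genes. The measure was the root mean square difference of centred log2 CPM over the 6 libraries. It includes the difference between the groups, by which CCL2, CXCL8 and TNF were chosen. Their nearest genes therefore tend to be higher in ΔNSPs too, and the median gene lies far off. Nothing is read from either. Nearest to CCL2 were KRT86 (0.378), GPR84 (0.812) and ITGB7 (0.835), against a median of 1.85 over all genes. KRT86 may share reads with near-identical keratin copies, so its counts are uncertain. Nearest to CXCL8 were CNTF (0.551), CD101 (0.573) and FFAR2 (0.583), against a median of 1.35. KRT86 at 0.0866 to 0.255 CPM in Control and CNTF at 0.0851 CPM in Control replicate 1 were near 0. Nearest to TNF were CLEC4D (0.18), LGALS9C (0.274), another gene with near-identical copies, and B3GNT8 (0.276), against a median of 0.94. CLEC4D, a C-type lectin receptor of myeloid cells, had 1.92, 4.84 and 7.75 CPM in clones 1 to 3 and 1.36, 1.88 and 1.30 CPM in Control replicates 1 to 3, lowest in clone 1 and highest in clone 3 as TNF was.

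Genes of the same pathways were taken from 5 lists, written with earlier results of these data known, and tested in edgeR's fit over all genes with Benjamini-Hochberg adjustment over all of them. None of the 117 list members tested passed an adjusted p of 0.05, where 0.0203% of all genes did. At an unadjusted p under 0.05 stood 0 of 3 other chemokines, 2 of 22 other cytokines, 4 of 15 receptors, 6 of 34 genes of processing, shedding and mRNA decay and 13 of 43 transcription factors and feedback inhibitors, against 17.8% of all genes, 9.23% higher and 8.6% lower in ΔNSPs. Limma voom called 0 in each list, and DESeq2 called 1 other chemokine and 5 transcription factors or inhibitors, against 3.98% of all genes in its test. The genes named below had all clones on one side of all Control lines by the rule that picked them, apart from the most abundant gene of each list and from CCR2, CXCR1, CD74, FURIN, ZFP36, CXCR2, the NF-kB subunit genes, BIRC3 and TNFAIP3, which were added after their values were seen.

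Receptors of the 8 cytokines were expressed unevenly, and of 15 tested 4 were higher and 1 lower in all clones than in all Control lines (33.3%, against 23.9% of all genes). TNFRSF1A, the main TNF receptor, was at 173 ± 12.3 CPM in ΔNSPs and 149 ± 11 CPM in Control, and TGFBR1, the most abundant of the 15 tested, was at 335 ± 21.4 CPM in ΔNSPs and 299 ± 30.9 CPM in Control (SD, n = 3 each; edgeR adjusted p = 0.329 and 0.462). CCR2, the receptor of CCL2, was at 1.996, 0.984 and 0.674 CPM in clones 1 to 3 and 0.766, 0.362 and 0.347 CPM in Control replicates 1 to 3, too low to be tested. Of the CXCL8 receptors CXCR1 was at 0.428 CPM at most, and CXCR2 was at 11.1 ± 4.09 CPM in ΔNSPs and 6.67 ± 1.74 CPM in Control, with overlapping groups (SD, n = 3 each; edgeR adjusted p = 0.273). The scavenger of CC chemokines ACKR2 was at 2.12 ± 0.703 CPM in ΔNSPs and 0.93 ± 0.202 CPM in Control (log2 fold change 1.18, SE 0.39), and GPR75 had a log2 fold change of 0.94 (SE 0.33). TGFBR3, a co-receptor of TGF-beta, was at 10.9 ± 2.79 CPM in ΔNSPs and 16.9 ± 2.65 CPM in Control (-0.63 on the log2 scale, SE 0.23; edgeR adjusted p = 0.227). CD74, the MIF receptor chain, varied from 0.421 to 65.5 CPM among the clones and from 1.73 to 16.6 CPM among the Control lines. The median log2 fold change of the list was 0.18.

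Of 34 tested genes that process or release the members or act on their mRNAs, 5 were higher and 4 lower in all clones than in all Control lines (26.5%, against 23.9% of all genes). ADAM17, the sheddase of TNF, was at 67.9, 66.6 and 59.6 CPM in clones 1 to 3, against 74.0, 106 and 89.1 CPM in Control replicates 1 to 3 (-0.47 on the log2 scale, SE 0.14; edgeR adjusted p = 0.189). All clones were below all Control lines, and the difference did not pass. FURIN, a convertase of TGFB1, was at 96.9 to 140.2 CPM in the clones and 125 to 132 CPM in Control. PCSK7, another convertase, was higher in all clones by 0.40 on the log2 scale (SE 0.11), and STX4, a syntaxin of the plasma membrane, was at -0.32 (SE 0.12); their edgeR adjusted p was 0.178 and 0.239. ELAVL1, which encodes the AU-rich element binding protein HuR, was at 229.9 ± 13.9 CPM in ΔNSPs and 194 ± 13.1 CPM in Control (SD, n = 3 each; 0.25 on the log2 scale, SE 0.10; edgeR adjusted p = 0.26). ZFP36 (tristetraprolin), which promotes decay of AU-rich mRNAs such as that of TNF, was at 13.1 to 17.6 CPM in the clones and 10.6 to 12.5 CPM in Control (edgeR adjusted p = 0.292). SRGN, the most abundant gene of the list, was at 1504 ± 442 CPM in ΔNSPs and 1300 ± 260.3 CPM in Control. The median log2 fold change was 0.01, with 17 genes positive and 17 negative.

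Few other chemokine genes were expressed. Of 34 written down, 8 were in the table and 3 could be tested. CXCL16 was at 2.88 ± 0.159 CPM in ΔNSPs and 1.96 ± 0.125 CPM in Control (SD, n = 3 each; 0.55 on the log2 scale, SE 0.25; edgeR adjusted p = 0.301). For CCL20 the log2 fold change was 0.85, with an SE of 0.42 and an adjusted p of 0.322. Among 22 tested other cytokines 4 were higher in all clones than in all Control lines and 0 were lower (18.2%, against 23.9% of all genes), and the median log2 fold change was 0.16. HBEGF, an epidermal growth factor family member that ADAM17 releases, was at 7.05 ± 0.764 CPM in ΔNSPs and 3.93 ± 0.86 CPM in Control (0.84 on the log2 scale, SE 0.24; edgeR adjusted p = 0.181). TNFSF13 (APRIL), TNFSF4 (OX40 ligand) and LTB had log2 fold changes of 0.86, 0.42 and 0.51, and HMGB1, the most abundant, had 0.10 (SE 0.13).

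Of 43 tested transcription factors and feedback inhibitors, 8 were higher and 2 lower in all clones than in all Control lines (23.3%, against 23.9% of all genes). FOSL1 was at 21.7, 18 and 16.3 CPM in clones 1 to 3, against 11, 9.27 and 9.62 CPM in Control replicates 1 to 3 (0.91 on the log2 scale, SE 0.17; edgeR adjusted p = 0.16). CEBPB was at 81.4, 213 and 174 CPM in clones 1 to 3, against 64.3, 74.9 and 75.7 CPM in Control replicates 1 to 3 (1.12 on the log2 scale, SE 0.31; edgeR adjusted p = 0.178). Like CCL2, CEBPB had its lowest clone in clone 1. The log2 fold change was 0.77 (SE 0.18) for JUNB and 1.44 (SE 0.31) for FOSB, both short of the edgeR threshold (adjusted p = 0.171 and 0.16). FOSL1, JUNB and CEBPB were DESeq2 calls, and they passed in edgeR without clone 1 (adjusted p = 0.0433, 0.0289 and 0.00403). Over all genes that refit called 928, against 3 with all 6 libraries, so little is read from passing in it. The other DESeq2 calls of the list had a negative log2 fold change, NFKB2 at -1.33 and BIRC3 at -2.21 (DESeq2 adjusted p = 0.00568 and 0.0394). The groups overlapped in both. Control replicate 1 lay inside the range of the clones, at 31.2 CPM for NFKB2 and 0.766 CPM for BIRC3. Both differences rest on Control replicates 2 and 3. In edgeR NFKB2 and TNFAIP3 were calls without Control replicate 1 (adjusted p = 0.0176 and 0.0487), a refit with 20 calls over all genes. The most abundant, CEBPA, had a log2 fold change of -0.09 (SE 0.13). The NF-kB subunit genes differed among themselves: with all 6 libraries the edgeR log2 fold change was 0.06 for RELA, -0.04 for NFKB1, -0.47 for REL, -0.92 for RELB and -1.33 for NFKB2 (adjusted p = 0.822, 0.893, 0.246, 0.332 and 0.178). Of these, REL was lower in all clones than in all Control lines. The median of the list was -0.04, with 20 genes positive and 23 negative.

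**Figure D5:**
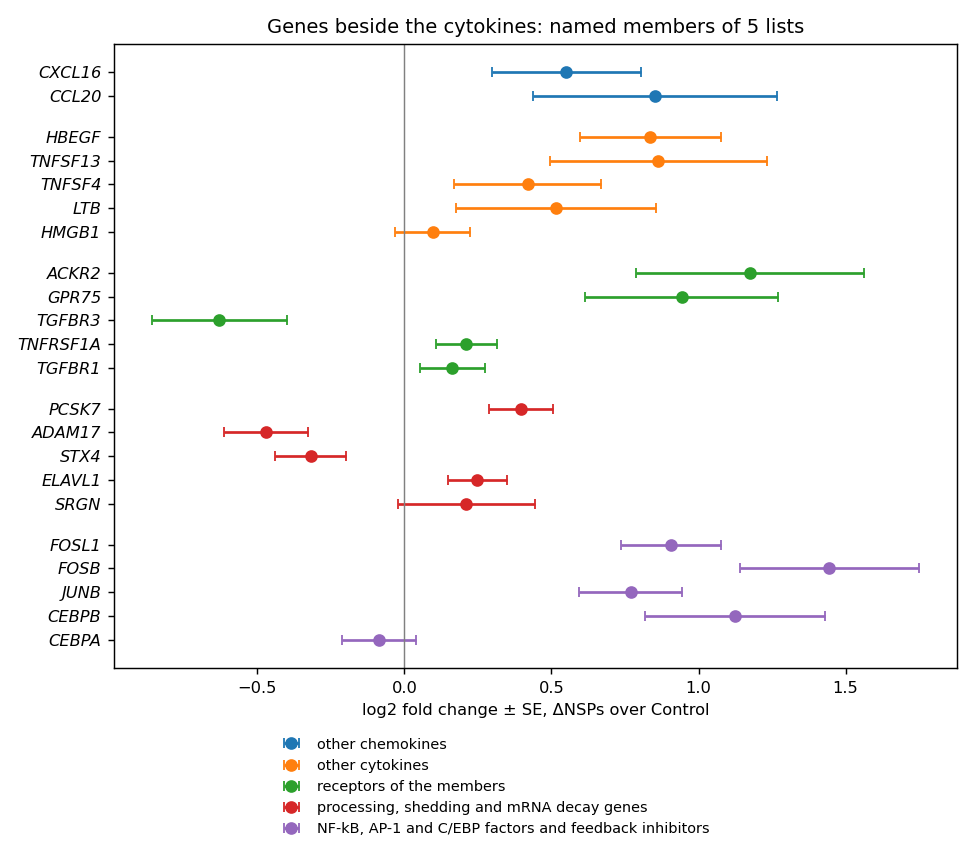
Log2 fold change with SE, ΔNSPs over Control, of the genes named by rule from 5 lists, coloured by list. No gene shown passed the edgeR threshold over all genes; FOSB (1.44) and ACKR2 (1.18) have the largest values, and TGFBR3 (-0.63) and ADAM17 (-0.47) are lower in the clones.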

How the data were processed

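For 6 libraries the authors deposited a single table of gene-level counts, keyed by Ensembl identifier, as whole numbers without normalization. GRCh38.p12 and the tools HTSeq 0.11.1, HISAT2 2.0.0, FastQC and SAMtools 1.5.9 are named per the submitters' processing notes. Strand setting, annotation release and filters were each not given in the sources used here. Summed over libraries, the lowest gene has 10 counts. Symbols, positions and exonic lengths came from GENCODE v29 (18771 of 18798 identifiers matched), and promoters from RefSeq.

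Sample titles gave the groups and the replicate numbers. The test was edgeR 4.0.16 (R 4.3.3), quasi-likelihood, TMM, filterByExpr, two-sided, with Benjamini-Hochberg adjustment over the 14797 genes tested. Each SE is the log2 fold change over the root of its F statistic. DESeq2 1.42.0, limma 3.58.1 (voom with sample weights), other size factors and filters, the replicate number as a block, and leaving out each library were alternatives; summing MIF and MIF-AS1 was chosen after seeing the data. The fits were tested on simulated data. Log2 CPM for spread and likeness used a prior count of 2. RPKM is CPM per kilobase of exonic union.

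The members and lists were chosen with earlier results of these data known. Named from each list were genes past the threshold, then up to 4 with the smallest p among those whose groups did not overlap, then the most abundant. Likeness named 3 genes per member. Genes brought in beside these (CXCL2, CCR2, CXCR1, CD74, FURIN, ZFP36, CXCR2, RELA, REL, RELB, NFKB1, NFKB2, BIRC3, TNFAIP3, TRAC, NKG7, PAX5, CD79A, and genes of the last section) were chosen after their values were seen.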

Additional observations from a re-analysis of the deposited data

How the results depend on the processing

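The fold changes of the 7 tested genes kept their sign under every alternative run (RLE size factors, library totals, no filter, a mean of at least 1 CPM, DESeq2, limma voom, the replicate block and leaving out each library). They moved by less than the SD of log2 CPM in the more scattered group, but not always by less than that in the other. CCL5 went from -0.48 to -0.73 without clone 3, with an SD of 0.38 among the clones and 0.16 among the Control lines. MIF summed with MIF-AS1 was at -0.083 on the log2 scale, against -0.72 for the MIF row alone. The MIF row is at most 2.42% of that sum. Which gene the reads on the MIF-AS1 row came from cannot be told, so neither value is given as the change in MIF. Over all genes edgeR called 3, DESeq2 515, and edgeR without 1 library 0 to 928: 928 without clone 1, 2 without clone 2, 1 without clone 3, 20 without Control replicate 1, and 0 without Control replicate 2 or 3. DESeq2 called 1 other chemokine (CXCL10) and 5 transcription factors or inhibitors. Leaving out 1 library gave 0 to 1 calls among other chemokines, 0 to 1 among other cytokines, 0 to 1 among processing genes, 0 to 3 among transcription factors and inhibitors, and 0 among receptors. With the replicate block edgeR called 0 genes over all genes, and CCL2 had an adjusted p of 0.275. Same-numbered libraries did not deviate together (r = -0.432, -0.161 and -0.14). These deviations were centred on each group's mean and so depend on one another, and r cannot show whether the numbers pair the samples. CCL3 did not pass the filter on counts; without that filter its log2 fold change was 0.11 (SE 1.35), and with DESeq2 it was 0.085 (SE 1.85). For CXCL8 and TNF, with 9 to 164 and 17 to 120 counts a library, depth limits the precision.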

Other observations

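The chemokine CXCL10, chosen after its values were seen, had 5, 4 and 1 counts in clones 1 to 3, against 2, 549 and 446 counts in Control replicates 1 to 3. It was at 0.0842 to 0.356 CPM in the clones, and at 0.17 CPM in Control replicate 1 and 39.8 and 38.6 CPM in Control replicates 2 and 3. Control replicate 1 thus lay with the clones and not with its own group. CXCL10 did not pass edgeR's filter on counts with all 6 libraries. Without Control replicate 1 it was 1 of 20 calls over all genes (log2 fold change -7.21, edgeR adjusted p = 0.00141).

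Some NF-kB genes had the same split, and so did SPP1 and ZC3H12A of other lists; all were singled out after their values were seen. RELA and NFKB1 did not, with NFKB1 at 50.5, 64.8 and 63.7 CPM in clones 1 to 3 and 55.6, 67.1 and 61.3 CPM in Control replicates 1 to 3. NFKB2 was at 32.6, 24.7 and 29.3 CPM in clones 1 to 3, against 31.2, 93.9 and 92.8 CPM in Control replicates 1 to 3. TNFAIP3, which encodes the feedback inhibitor A20, was at 7.84, 6.81 and 12.3 CPM in the clones and 10.3, 41.1 and 39.9 CPM in Control. BIRC3 was at 0.642, 1.36 and 1.77 CPM in the clones and 0.766, 8.04 and 8.58 CPM in Control, and SPP1, which encodes osteopontin, had 1, 4 and 2 counts in the clones and 3, 61 and 77 counts in Control. RELB was at 11.5, 9.54 and 16.2 CPM in the clones and 8.17, 30.3 and 31.8 CPM in Control, and NFKBIA, an inhibitor of NF-kB, was at 23.5, 28.5 and 26.7 CPM in the clones and 17.7, 42.3 and 43.7 CPM in Control. ZC3H12A, an RNase of cytokine mRNAs, was at 15.5, 16.3 and 18.1 CPM in the clones and 11.6, 41.0 and 40.2 CPM in Control. CCL2 did not share that split, at 7.57 CPM in Control replicate 1 and 10.1 and 8.84 CPM in Control replicates 2 and 3.

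The chemokine CCL23 differed among the clones, with 5, 101 and 17 counts in clones 1 to 3 and 3, 3 and 4 counts in Control. CCL1 had 2, 4 and 26 counts in the clones and 1, 0 and 0 counts in Control. Both were chosen after their values were seen and were too low in most libraries to be tested with all 6.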
